A study of Danio rerio with 8 samples.

Results

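The 5 zebrafish dual-specificity phosphatase genes dusp1, dusp2, dusp4, dusp5 and dusp6 were followed in hindbrains with and without a constitutively active Fgf receptor. They were chosen by Ensembl gene ID for dusp1 (ENSDARG00000100515), dusp4 (ENSDARG00000044688), dusp5 (ENSDARG00000019307) and dusp6 (ENSDARG00000070914), and by symbol for dusp2, which matched 1 ID (ENSDARG00000098108). They are 5 of the 32189 gene IDs counted. RNA was sequenced from 8 libraries, each made from 1 dissected hindbrain with surrounding tissue at 24 to 25 hours post-fertilisation (hpf). In 4 libraries the embryo was genotyped as constitutively active fgfr1 (called ca_fgfr1 here), and in the other 4 as wt (called control), both under the strain label Tg(hsp70:ca-fgfr1). Both groups were raised at 28.5°C to 22 hpf, held at 38.5°C for 30 min and returned to 28.5°C for 2 h, so the controls were heat shocked too. The transgene is driven by a heat-inducible promoter which does not limit it to hindbrain cells. Per the study's methods the carriers were heterozygotes from outcrosses, the groups came from the same clutch, and carriers were identified by qPCR once RNA had been extracted.

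Dual-specificity MAP kinase phosphatases switch off MAP kinases by removing phosphate from both the threonine and the tyrosine that activate them. Fgf receptors signal through Ras, Raf and Mek to the MAP kinase Erk, and Erk activity in turn induces several of these phosphatase genes, so that they act as feedback inhibitors. The cytoplasmic, Erk-specific enzyme Dusp6 is the best known of them in the embryo, where its transcript follows Fgf signalling. In mammalian cells DUSP1, DUSP2, DUSP4 and DUSP5 are nuclear enzymes with inducible transcripts. DUSP5 acts on ERK, whereas DUSP1 also acts on the stress-activated kinases p38 and JNK and is induced by stress and growth factors.

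Library totals were 15327169 to 20541155 counts in ca_fgfr1 and 13173019 to 17980114 in controls. Of the 5 genes, 4 passed the filter on low counts, as did 18075 IDs in all, while dusp2 did not. The 2 zebrafish IDs named FGFR1 had log2 fold changes of 0.08 ± 0.26 and -0.46 ± 0.40 SE (edgeR adjusted p = 0.975 and 0.884). Whether reads of the transgene align to these IDs is not known, so that these counts do not check the genotype. Of 8 hindbrain markers, 7 were measured, with a summed level of 1263 to 1757 CPM (counts relative to the scaled library total) in ca_fgfr1 and 1495 to 1751 CPM in controls. Markers of epidermis (6 of 6 measured; 6984 to 13460 CPM in ca_fgfr1 and 8612 to 24170 CPM in controls) and of blood (4 of 6 measured; 3.35 to 155.5 CPM in ca_fgfr1 and 3.93 to 259.9 CPM in controls) varied between dissections. Muscle markers (3 of 5 measured) summed to 144.4 CPM in control replicate 4, against at most 4.64 CPM in ca_fgfr1 and 2.999 CPM in the other controls. Control replicate 1 had the smallest scaling factor (0.811, against 0.940 to 1.15 in the other libraries).

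Transcripts of dusp6 and dusp4 were higher in all ca_fgfr1 hindbrains than in any control. Those of dusp5 and dusp2 overlapped the controls in 1 ca_fgfr1 hindbrain and were highest in another, ca_fgfr1 replicate 4. Those of dusp1 differed least. In the edgeR test across all genes 0 of the 4 tested members reached an adjusted p of 0.05, against 9 of 18075 genes on the higher side (0.0498%), of which 3 met the study's criteria for a call (0.0166%). No gene passed on the lower side, where 580 (3.21%) had an unadjusted p under 0.05 and DESeq2 gave 18 at an adjusted p of 0.05. All 4 tested members had a log2 fold change above 0, against 45.9% of all genes, and 2 of them one of at least 1, against 1.5%. The groups did not overlap for 2 of the 4 tested members, against 1.9% of all genes tested with every ca_fgfr1 library above every control and 1.44% with every one below. The same 2 members had an unadjusted edgeR p under 0.05 on the higher side, against 2.14% of all genes tested. Because whole tissue was sequenced, more transcript per cell and more cells carrying it cannot be told apart.

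**Figure D1:**
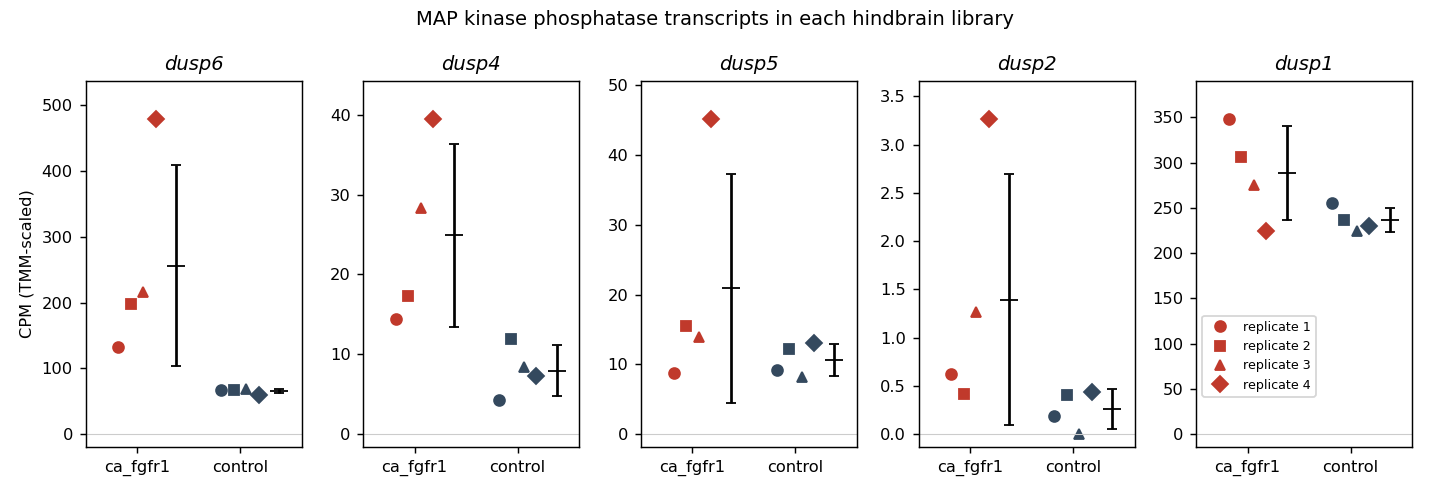
Level of each phosphatase gene in CPM after TMM scaling, with ca_fgfr1 libraries in red and controls in dark blue, the marker shape giving the replicate, and the bar giving the mean ± SD of 4 libraries. For dusp6 and dusp4 all red points lie above all blue ones, for dusp5 and dusp2 the highest point is ca_fgfr1 replicate 4, and for dusp1 that library is the lowest of its group.

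The cytoplasmic Erk phosphatase gene dusp6 had the largest fold change of the 4 tested members. Its level was 132.5, 197.6, 215.9 and 479.2 CPM in ca_fgfr1 replicates 1 to 4, against 66.9, 67.3, 68.5 and 60.3 CPM in control replicates 1 to 4. The groups were far apart: the lowest ca_fgfr1 library was at 2.02 times the control mean and the highest at 7.29 times. The mean was 256.3 ± 152.9 CPM in ca_fgfr1 and 65.8 ± 3.68 CPM in controls (SD, n = 4 each), which is 3.90-fold in the edgeR fit. On the log2 scale this was 1.96 ± 0.36 (SE), with an edgeR adjusted p of 0.190. Among the 18075 genes tested, dusp6 ranked 19 by edgeR p-value (unadjusted p = 0.0002). An exact two-sided permutation test of its log2 CPM gave p = 0.0286, the smallest that 4 against 4 libraries allow. DESeq2, the tool used by the study, gave an adjusted p of 0.00022 and called the gene with the study's criteria (adjusted p of 0.01 or less, at least 2-fold, normalised count above 30 throughout 1 group), as it did 0.199% of all genes on the higher side. The DESeq2 call held without any 1 of the 8 libraries, with adjusted p from 1.59e-06 to 0.00437. In edgeR the adjusted p lay between 0.0773 and 0.719 without 1 library, and the log2 fold change between 1.43 (without ca_fgfr1 replicate 4) and 2.18 (without ca_fgfr1 replicate 1).

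The level of dusp6 was spread widely among ca_fgfr1 hindbrains and narrowly among controls, a difference in spread that was not tested. Its coefficient of variation was 59.6% among ca_fgfr1 libraries, higher than for 97.8% of the 9691 genes that averaged 10 CPM or more, and 5.60% among controls, where only 1.41% of those genes varied less. Over the same genes the median coefficient of variation ran the other way, at 19.8% in ca_fgfr1 and 31.7% in controls. The controls included replicate 1, which was low for other Fgf-regulated genes (253.5 CPM summed over 11 genes, against 465 to 498.7 CPM in the other controls) but not for dusp6. Its low level was not particular to Fgf-regulated genes. The other MAP kinase phosphatases summed to 46.09 CPM there, against 86.43 to 120.1 CPM in the other controls. It was also the lowest control for dusp4 (4.31 CPM) and had the fewest genes detected of all libraries (21708).

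The nuclear phosphatase gene dusp4 was the other member whose groups did not overlap. Its level was 14.5, 17.3, 28.3 and 39.5 CPM in ca_fgfr1 replicates 1 to 4, against 4.31, 11.9, 8.36 and 7.32 CPM in control replicates 1 to 4. The gap between the groups was narrow, 14.5 against 11.9 CPM between their nearest libraries. The mean was 24.9 ± 11.4 CPM in ca_fgfr1 and 7.98 ± 3.14 CPM in controls (SD, n = 4 each), which is 3.11-fold in the edgeR fit. On the log2 scale this was 1.64 ± 0.39 (SE; edgeR adjusted p = 0.504, rank 55 by unadjusted p, 0.00159). The exact two-sided permutation test again gave its smallest possible value, p = 0.0286. With DESeq2 the adjusted p was 0.0222, below 0.05 as for 0.354% of genes on the higher side but above the 0.01 of the study's criteria. That result depended on single libraries: the adjusted p was above 0.05 without ca_fgfr1 replicate 3 (0.178), ca_fgfr1 replicate 4 (0.250), control replicate 3 (0.0864) or control replicate 4 (0.129), and 0.00579 to 0.0261 without each of the others.

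The Erk-specific nuclear phosphatase gene dusp5 was high in a single hindbrain. Its level was 8.83, 15.5, 14.0 and 45.2 CPM in ca_fgfr1 replicates 1 to 4, against 9.18, 12.2, 8.26 and 13.0 CPM in control replicates 1 to 4. The groups overlapped: ca_fgfr1 replicates 2 to 4 lay above all controls, replicate 3 narrowly, and replicate 1 lay below the control mean. The means were 20.9 ± 16.4 CPM in ca_fgfr1 and 10.7 ± 2.31 CPM in controls (SD, n = 4 each), or 0.97 ± 0.46 (SE) as a log2 fold change (edgeR adjusted p = 0.866; exact two-sided permutation p = 0.171). Without ca_fgfr1 replicate 4 the log2 fold change was 0.22 ± 0.31 (edgeR adjusted p = 0.978), and the ratio of the group medians, which that library moves less, was 1.38. Zebrafish dusp5 is also known from blood vessels. Vascular markers (5 of 6 measured) summed to 104.9 CPM in ca_fgfr1 replicate 4, the highest of its group (72.3 to 104.9 CPM) and within the controls (72.0 to 162.2 CPM). Taken singly, 1 of the 5 markers, FLI1, was highest in that library within ca_fgfr1. The part of vascular tissue in the dusp5 level was not tested.

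The gene dusp2, whose mammalian counterpart is best known as an inducible nuclear phosphatase of lymphoid cells, was close to the limit of detection. It had 13, 7, 22 and 50 counts in ca_fgfr1 replicates 1 to 4, against 2, 6, 0 and 9 counts in control replicates 1 to 4. That is 92 counts over the ca_fgfr1 libraries and 17 over the controls, and 50 of the 92 came from ca_fgfr1 replicate 4. In CPM the levels were 0.419 to 3.27 in ca_fgfr1 and 0 to 0.439 in controls. The groups overlapped, with only ca_fgfr1 replicate 2 below the highest control. The count of 0 in control replicate 3 allows up to 0.154 CPM (3 counts, counting error only). In a fit without the filter on low counts the log2 fold change was 2.40 ± 0.86 SE (edgeR adjusted p = 0.830) and 1.51 ± 0.88 without ca_fgfr1 replicate 4. The exact two-sided permutation test gave p = 0.0571.

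The nuclear phosphatase gene dusp1, a stress-inducible and immediate early gene in mammals, had the smallest fold change of the 4 tested members. Its level was 348.4, 306.7, 274.8 and 224.5 CPM in ca_fgfr1 replicates 1 to 4, against 255.9, 236.5, 224.8 and 230.5 CPM in control replicates 1 to 4. Replicates 1 to 3 of ca_fgfr1 lay above all controls, whereas replicate 4 lay just below the lowest of them. The means were 288.6 ± 52.3 CPM in ca_fgfr1 and 236.9 ± 13.5 CPM in controls (SD, n = 4 each), or 0.28 ± 0.20 (SE) as a log2 fold change (edgeR adjusted p = 0.870; exact two-sided permutation p = 0.143). DESeq2 gave an adjusted p of 0.879. Like dusp6, dusp1 varied little among controls, with a coefficient of variation of 5.71%, lower than for all but 1.51% of the 9691 genes.

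**Figure D2:**
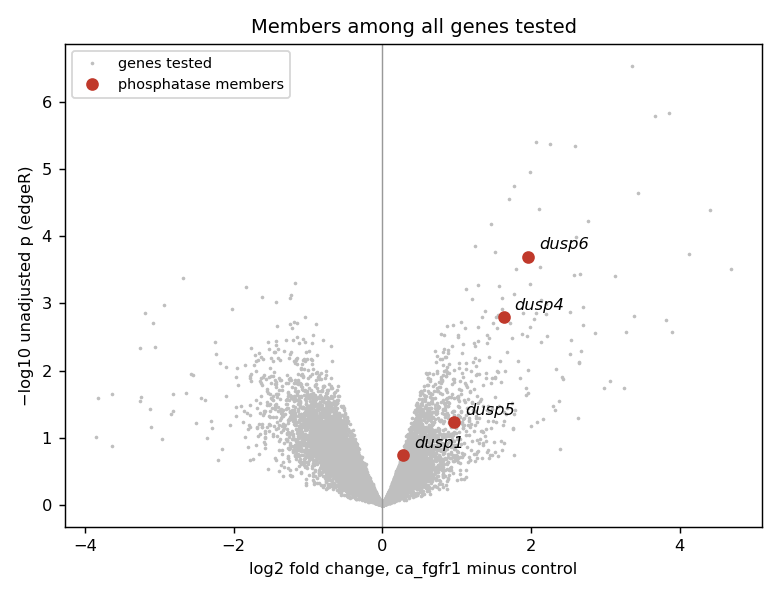
Each grey point is 1 of the 18075 genes tested, with the edgeR log2 fold change (ca_fgfr1 minus control) on the x axis and the -log10 of its unadjusted p on the y axis, and the 4 tested phosphatase genes in red. Among them dusp6 lies furthest up at rank 19, dusp4 at rank 55, dusp5 at rank 1138 and dusp1 at rank 3804.

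The members did not share one order of libraries. Within ca_fgfr1, replicate 4 was highest for dusp2, dusp4, dusp5 and dusp6, and lowest for dusp1. Over all genes tested, replicate 4 was the highest ca_fgfr1 library for 24.1% and the lowest for 24.1%. Both dusp4 and dusp6 had the 4 libraries in the order 1, 2, 3, 4 from low to high, as 5.57% of all genes did, and dusp1 had exactly the reverse order, as 4.97% did. Relative to the control mean, dusp6 was at 2.02, 3.004, 3.28 and 7.29 times in ca_fgfr1 replicates 1 to 4, dusp4 at 1.81, 2.17, 3.55 and 4.95 times, and dusp1 at 1.47, 1.30, 1.16 and 0.948 times.

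Other measures moved with that order. Summed over 9 measured of 12 listed heat shock genes, the level was 868.1, 1143, 2086 and 3483 CPM in ca_fgfr1 replicates 1 to 4, against 1149, 1276, 1505 and 3158 CPM in control replicates 1 to 4, and replicate 4 was the highest ca_fgfr1 library for 9 of the 9 genes. The sum in control replicate 4 was close to that in ca_fgfr1 replicate 4, but single genes differed. For instance, hsp70.3 was at 9.615 CPM in control replicate 4 and at 36.66 CPM in ca_fgfr1 replicate 4. Of the measured genes, only hsp90aa1.1 (892.3 against 742.4 CPM) and hsf1 (32.6 against 27.57 CPM) were higher in control replicate 4. Control replicate 4 had the lowest dusp6 level of all libraries (60.3 CPM). Among the controls it was the highest for dusp5 (13.0 CPM, against 8.26 to 12.2 CPM) and for dusp2 (0.439 CPM). For dusp4 and dusp1 it was neither the highest nor the lowest control. Of 6 epidermis markers, 5 were highest in ca_fgfr1 replicate 4 within that group, with a sum of 13460 CPM, which lay within the controls. Its summed hindbrain markers were the lowest of all libraries (1263 CPM), but sox3 alone made 821 CPM of that sum. Marker by marker, it was the lowest ca_fgfr1 library for 2 of the 7 (28.6%, against 24.1% of all genes tested). The part of heat shock genes, epidermis or hindbrain markers in the phosphatase levels was not tested.

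**Figure D3:**
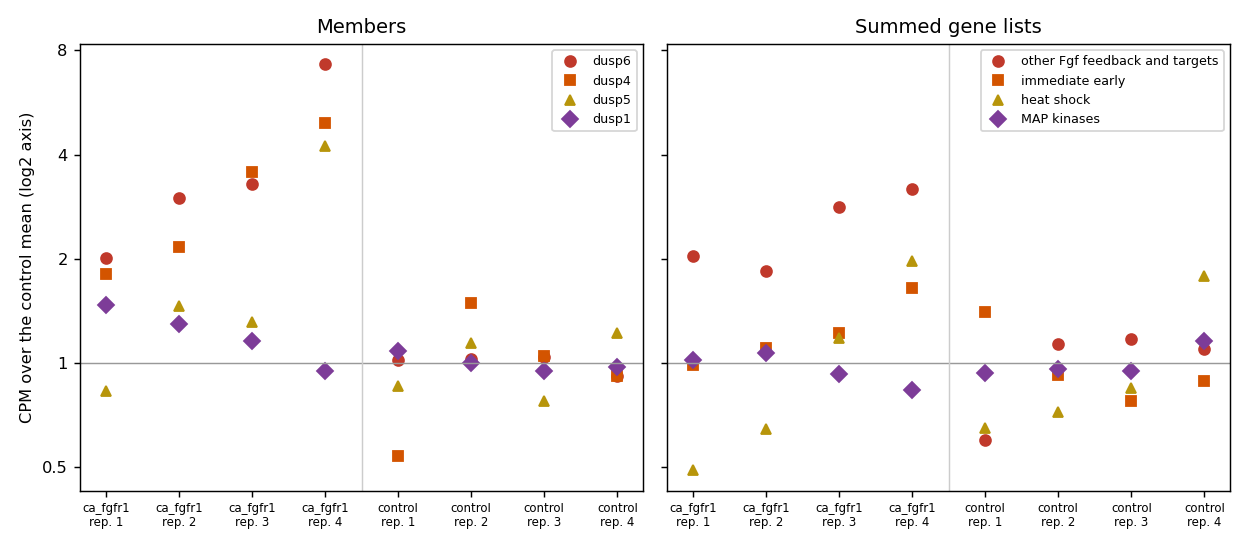
Level in each library over the mean of the 4 controls, on a log2 axis, for 4 phosphatase genes (left) and for gene lists summed in CPM (right), with ca_fgfr1 libraries left of the controls. In ca_fgfr1 replicate 4 dusp6, dusp4 and dusp5 lie at 7.29, 4.95 and 4.23 times the control mean and dusp1 at 0.948 times, while the heat shock list lies at 1.97 times there and at 1.78 times in control replicate 4.

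None of the other tested MAP kinase phosphatase genes had an unadjusted edgeR p under 0.05, the lowest being 0.0656 (dusp16). The members dusp5 (0.0582) and dusp1 (0.183) had none either, unlike dusp6 and dusp4. Over all genes tested the share was 2.14% on the higher side and 3.21% on the lower, so none among so few genes is near that share. Of the 4 IDs on the list of other MAP kinase phosphatases 3 were tested, 1 higher and 2 lower in ca_fgfr1. Their median log2 fold change was -0.27 (-0.04 over all genes tested). The gene dusp7, which in mammals encodes the closest relative of DUSP6, was at 34.0, 24.2, 31.5 and 31.04 CPM in ca_fgfr1 replicates 1 to 4, against 19.1, 40.0, 45.2 and 41.6 CPM in control replicates 1 to 4, or -0.27 ± 0.28 (SE) as a log2 fold change (edgeR adjusted p = 0.906). Its groups overlapped widely. DUSP8 (ENSDARG00000009299) and dusp16, whose mammalian counterparts act mainly on JNK and p38, had log2 fold changes of 0.08 ± 0.32 and -0.97 ± 0.47 SE (edgeR adjusted p = 0.983 and 0.866). The related gene dusp10 had at most 6 counts in any library. Of 17 atypical dual-specificity phosphatases, which lack the MAP kinase-binding domain, 7 were tested, with 5 higher, 2 lower and a median log2 fold change of 0.13, again with none at an unadjusted p under 0.05.

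No tested MAP kinase gene and no tested gene between the receptor and Erk had an unadjusted edgeR p under 0.05. Over all genes tested the share was 2.14% on the higher side and 3.21% on the lower. None among so few genes therefore does not show that they were unchanged. The lowest unadjusted edgeR p were 0.051 (grb2b), 0.0545 (mapk7), 0.0576 (braf) and 0.0582 (sos2), beside 0.0582 for dusp5. Of 15 MAP kinase genes, 8 were tested, 2 higher and 6 lower, with a median log2 fold change of -0.39. The gene mapk3, which encodes a substrate of Dusp6, had a log2 fold change of -0.13 ± 0.26 (SE), with an edgeR adjusted p of 0.964. Of 21 genes leading from the receptor to Erk (adaptors, Ras, Raf and Mek), 14 were tested, 7 higher and 7 lower, with a median log2 fold change of 0.02. Their summed level was 502.3 to 513.5 CPM in ca_fgfr1 and 474.1 to 517.8 CPM in controls. In that list the adaptor gene grb2b lay above (log2 fold change 0.40 ± 0.18) and the adaptor gene shc1 below (-0.38 ± 0.20) all controls in all ca_fgfr1 libraries, both with an edgeR adjusted p of 0.866. Over all genes tested, 1.9% lay above and 1.44% below in this way.

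Several other feedback inhibitors and targets of Fgf signalling had fold changes in the range of dusp6 and dusp4. Of 11 genes tested, 10 were higher (45.9% of all genes tested), with a median log2 fold change of 0.75. For 5 of them every ca_fgfr1 library lay above every control, against 1.9% of all genes. An adjusted p of 0.05 was passed by 1, against 0.0498% of all genes on the higher side. This was spry2, which encodes a Sprouty inhibitor of receptor signalling (1.77 ± 0.25 SE, edgeR adjusted p = 0.0408). The log2 fold change of dusp6 (1.96 ± 0.36) stood beside those of spry4 (2.14 ± 0.47), etv5b (1.80 ± 0.35), spry1 (1.65 ± 0.53) and etv4 (1.49 ± 0.37), whose edgeR adjusted p were 0.417, 0.253, 0.866 and 0.537. The rest of the list had log2 fold changes from -0.52 ± 0.51 (spred3, the only gene lower in ca_fgfr1) to 0.75 ± 0.34 (SPRED2). As with dusp6, the highest ca_fgfr1 library was replicate 4 for 8 of the 11 genes. For spry4 the level was 72.4, 93.8, 128.2 and 218.4 CPM in ca_fgfr1 replicates 1 to 4, against 8.99, 29.5, 36.3 and 41.7 CPM in control replicates 1 to 4, so that its controls spread more than those of dusp6.

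**Figure D4:**
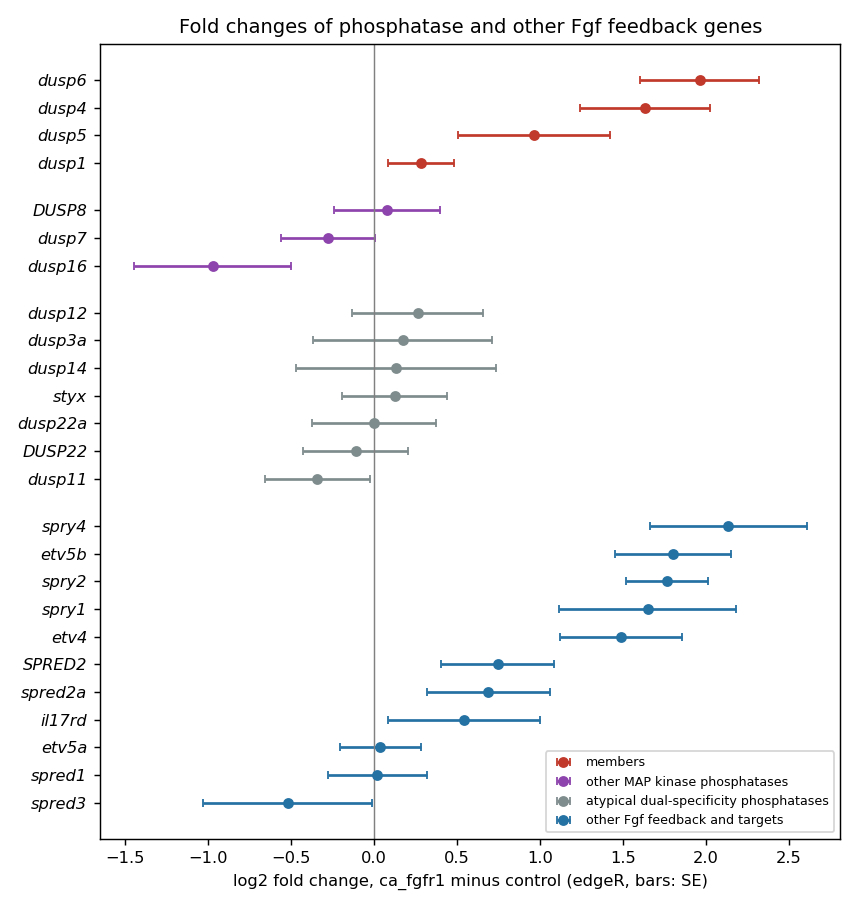
Log2 fold change (ca_fgfr1 minus control, edgeR, bars ± SE) of the 4 tested members (red), other MAP kinase phosphatases (purple), atypical dual-specificity phosphatases (grey) and other Fgf feedback genes and targets (blue). The members dusp6 (1.96) and dusp4 (1.64) lie in the range of spry4, etv5b, spry2, spry1 and etv4 (1.49 to 2.14), whereas the grey genes lie between -0.34 and 0.26. The other blue genes lie between -0.52 and 0.75.

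Immediate early genes, which Erk induces through serum response and Ets factors, were set beside dusp1. Of 14 tested, 9 were higher and 5 lower, with a median log2 fold change of 1.03. An unadjusted edgeR p under 0.05 on the higher side was found for 6, against 2.14% of all genes tested. None of the 6 reached an adjusted p of 0.05 in edgeR. The transcription factor gene egr1 was at 3.91, 4.07, 22.3 and 81.0 CPM in ca_fgfr1 replicates 1 to 4, against 0.937, 2.59, 2.57 and 1.71 CPM in control replicates 1 to 4 (log2 fold change 3.81 ± 0.93 SE, edgeR adjusted p = 0.526). Replicate 4 was the highest ca_fgfr1 library for 11 of the 14, as for dusp6 and unlike dusp1. Of the same list, ier5 and btg2 had log2 fold changes of 0.23 ± 0.33 and -0.13 ± 0.22 (SE), beside 0.28 ± 0.20 for dusp1. They do not stand for the list, which ran from -0.60 ± 0.30 (jun) to 3.90 ± 1.01 (FOSL1).

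By likeness over the 8 libraries (Pearson r of log2 CPM among the genes averaging 10 CPM or more, a description without a test that includes the difference between groups), the genes closest to dusp6 were epoa (r = 0.973), FHL3 (0.970), TMEM214 (0.970), rgs3a (0.967) and PMPCA (0.964). Those closest to dusp4 were YWHAB (r = 0.994), rgs3a (0.968), MYC ENSDARG00000045695 (0.968), snap23.1 (0.961) and mthfd2 (0.961), so that rgs3a, a regulator of G-protein signalling, was in both lists. Between dusp4 and dusp6 themselves r was 0.911. After each group's mean was taken out, r was 0.842 to 0.954 for the genes named for dusp6 and 0.881 to 0.985 for those named for dusp4. The same libraries had been used to pick these genes, so this is no separate check of the likeness. The genes closest to dusp5 were tob1b (r = 0.976), SH3BP5L (0.964), LTV1 (0.958), ENSDARG00000091754 (0.949) and NGRN (0.941). Those closest to dusp1 were TSPAN11 (r = 0.971), PACSIN1 (0.956), ERLIN1 (0.953), CORO1C (0.944) and stk38l (0.939). For dusp2, whose level rests on few counts, zgc:171971 was closest (r = 0.969), followed by CIAO1, ENO1, RAB5A and si:ch1073-303k11.2 (0.908 to 0.945).

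**Figure D5:**
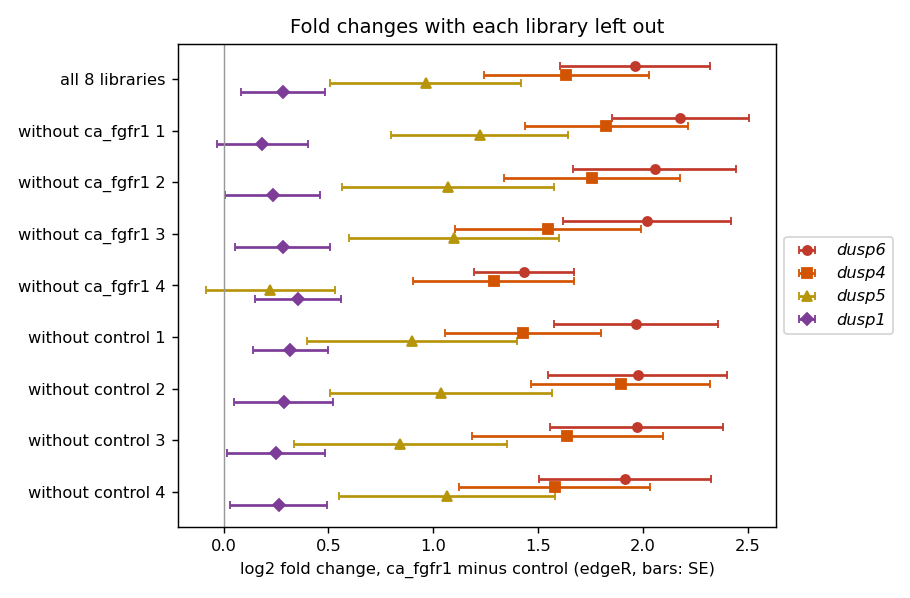
Log2 fold change (ca_fgfr1 minus control, edgeR, bars ± SE) of 4 phosphatase genes with all libraries and with each library left out, named at the left. Without ca_fgfr1 replicate 4 dusp5 lies at 0.22 and dusp6 at 1.43, and dusp6 and dusp4 lie at 1.29 or above in every row.

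The order of the 4 tested members by log2 fold change was dusp6, dusp4, dusp5 and dusp1 with all libraries. The ranges of ± 1 SE overlapped between dusp6 and dusp4 and between dusp4 and dusp5, and without ca_fgfr1 replicate 4 dusp5 (0.22 ± 0.31) and dusp1 (0.36 ± 0.21) stood in the reverse order. With control replicate 1 and ca_fgfr1 replicate 2 both left out, the log2 fold changes were 2.08 for dusp6, 1.58 for dusp4, 1.02 for dusp5, 0.30 for dusp1 and 2.58 for dusp2, with edgeR adjusted p from 0.264 to 0.409.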

How the data were processed

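The authors amplified cDNA from single hindbrains (SMARTer, Nextera XT), sequenced single-end reads, aligned them to GRCz10 with STAR 2.5.1b and estimated counts with RSEM 1.2.31. The deposited values are these expected counts, rounded to whole numbers by the authors and not scaled for depth, for 32189 IDs in 8 libraries. RSEM divides reads shared by paralogues, and use of strand was not stated. The group letter in the column names, C or F, was taken to mean control or ca_fgfr1 and the digit to be the replicate, and 0 columns were left unused.

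The analysis used edgeR 4.0.16 under R 4.3.3 (filterByExpr, TMM factors, legacy quasi-likelihood F-test, no covariates, all 8 libraries), with Benjamini-Hochberg adjustment over 18075 genes. DESeq2 1.42.0 and limma-voom (limma 3.58.1) were alternatives, with other scalings, filters, a replicate block and left-out libraries. CPM are on TMM-scaled totals and log2 CPM used a prior count of 2. The SE was derived from the size of the log2 fold change and the root of F. The fits were run on 1 draw of simulated counts with known changes, where DESeq2 passed more unchanged genes than edgeR or limma-voom did. That draw used the dispersion trend fitted by edgeR and held no tissue differences between libraries, so it cannot decide between the tools on these data. Replicates are single embryos, so p-values measure the spread between these embryos. The study's methods take both groups from the same clutch and do not state whether all replicates shared it.

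The members and gene lists were chosen with earlier results of these data known. Every member was named, and other genes only from the lists or by likeness (the 5 highest r). Symbols came from a table that named 26350 IDs. Of 151 listed genes, 114 matched 1 ID, 29 several (not used) and 8 none, and 12 found only an upper-case symbol lacking the paralogue letter, so their paralogue is uncertain. For each of the 5 members RefSeq's gene table (assembly GRCz12tu) holds 1 gene of that symbol and 0 with an a or b ending. No coordinates or sequences are given.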

Additional observations from a re-analysis of the deposited data

Results flagged for a closer look

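Dixon's ratio (gap to the nearest library over the range of the group) was computed in 40 groups of 4 libraries, for the CPM of each member and the summed CPM of each list. It passed the 95% critical value in 4, all in control libraries and none for a phosphatase member, where chance gives about 1 in 20 groups. The atypical dual-specificity phosphatases summed to 210.9 CPM in control replicate 1, where styx alone made 129.4 CPM, and to no more than 124 CPM in any other control. The MAP kinases summed to 366 CPM in control replicate 4, and to no more than 304.5 CPM in any other control, with mapk6 at 126.5 CPM there and at 2.81 CPM in control replicate 1. The other Fgf feedback genes and targets summed to 253.5 CPM in control replicate 1, against at least 465 CPM in the other controls. The muscle markers summed to 144.4 CPM in control replicate 4, and to no more than 2.999 CPM in any other control.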

How the results depend on the processing

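Every alternative run kept the sign of all 5 members. Against 1.96 for dusp6 and 1.64 for dusp4 in edgeR, neither past an adjusted p of 0.05, DESeq2 gave 1.95 and 1.63, both past it, and with 1 library left out, in edgeR or DESeq2, the log2 fold changes were 1.43 to 2.18 for dusp6 and 1.29 to 1.90 for dusp4. The range over those left-out fits was 0.17 to 0.37 for dusp1, 0.22 to 1.22 for dusp5 and 1.51 to 2.83 for dusp2, none past 0.05. Over the other edgeR and limma-voom settings the adjusted p of dusp6 was 0.0956 (no filter) to 0.818 (replicate block). Genes called with the study's criteria, 3 in edgeR, numbered 1 with relative log expression factors, upper-quartile factors, library totals only or the robust fit, 6 with no filter, limma-voom or the newer quasi-likelihood method, 5 with at least 5 CPM in 4 libraries, 9 at an adjusted p of 0.05, 45 with DESeq2 (36 higher, 9 lower), 0 without control replicate 1 and ca_fgfr1 replicate 2, and 0 to 145 without 1 library. Genes at an adjusted p of 0.05, 9 in edgeR, numbered 14 with no filter, 82 with DESeq2, 13 with the newer method and 1 to 1571 without 1 library, the highest with DESeq2 without control replicate 1. The causes were not tested. Over all genes the median log2 fold change lay between -0.0748 and -0.00031 across scalings, filters and tools. Deviations of same-numbered libraries from their group means were not positively correlated in every pair (r across genes -0.293 and -0.0132 for numbers 1 and 2, 0.220 and 0.194 for 3 and 4), so the numbers were not taken to pair the samples. The summed heat shock genes did rise with the number in both groups, and whether same-numbered libraries share anything is not known. With the replicate block edgeR called 0 genes (586 at an unadjusted p under 0.05), gave 2 at an adjusted p of 0.05 and put dusp6 at 1.79 and dusp4 at 1.62. The DESeq2 fits without 1 library and the fits of dusp2, made without a filter wherever the filter removed it, were added after seeing the data. Depth limits dusp2, where 1 count is worth 0.0477 to 0.0937 CPM.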
